A study of Homo sapiens with 4 samples.

Results

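The RNAs described here are long non-coding RNAs (lncRNAs) that are well known from tumour biology: MALAT1, NEAT1, H19, GAS5, SNHG1, MEG3, HOTAIR and PVT1. Every probe other than the array's controls was taken whose accession maps to one of these 8 RNAs in RefSeq, whatever its signal. The array's own gene names were not searched, so that a probe linked to one of these RNAs only by name would be missed. That rule found 7 of the 8 RNAs among the 19062 genes of the RefSeq table that the array covers, with 9 of its 34127 probes. MEG3 and PVT1 had 2 probes each, the other 5 RNAs had 1 probe each, and NEAT1 had no matched probe, so that no value is given for it.

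The experiment compared SB cells with SCt cells, both derived from SAS, a human tongue squamous carcinoma cell line. SB cells carry a lentiviral pLKO.1 construct with an shRNA (shRNA-B) against AEG-1, which is also called LYRIC and is encoded by MTDH. SCt cells are the control line. The labels give it the pLKO.1 vector, and the study's methods a scrambled shRNA. Both lines went through 14 days of selection in 2 μg/ml puromycin and were kept as stable clones, so that a difference between 2 lines cannot be told apart from a difference due to the shRNA. On each of 4 two-colour Agilent human arrays, cDNA from 15 μg of SB RNA was labelled with the red Alexa dye and cDNA from 15 μg of SCt RNA with the green one. All arrays lay on 1 slide and 0 had the dyes swapped, so that a dye effect cannot be told apart from a difference between the lines. The 4 arrays are labelled biological replicates. The study's methods describe independent biological replicates for its in vitro comparisons in general, with a number that is not that of the arrays, and do not say whether the arrays came from separate cultures. The p-values therefore measure only the spread between these arrays, which may be technical.

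All values below are log2 ratios of SB over SCt after loess normalization within each array, where 0 is no difference, or median spot intensities of the scanner. The intensities are not normalized and cannot be compared between probes or, as amounts of RNA, between arrays. Between 84.7% and 90.3% of spots were well above background per channel and array, and 0 spots were saturated. The targeted RNA gave log2 ratios of −3.18, −3.01, −3.12 and −3.41 on arrays 1 to 4 at its probe, 9.07-fold lower in SB cells on average (adjusted p = 5.19e-10, limma). All 12 squamous epithelial markers examined (keratins, desmosomal proteins and TP63 among them) gave signals well above background from either line on each of the 4 arrays. The same was true of 4 of 4 leukocyte, 3 of 3 endothelial and 3 of 5 fibroblast markers, so that passing this threshold does not by itself mark a cell type.

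LncRNAs are transcripts that act as RNA rather than as templates for protein. MALAT1 lies in nuclear speckles, where splicing factors gather, and is read as a marker of metastasis in several carcinomas. H19 and MEG3 are imprinted, H19 being the maternally expressed partner of IGF2 and MEG3 that of DLK1. GAS5 and SNHG1 are hosts of small nucleolar RNAs (snoRNAs), which are cut from their introns, while the spliced remainder is degraded in the course of translation. HOTAIR is transcribed from the HOXC cluster and is known for its link to Polycomb chromatin factors, and PVT1 lies beside MYC and is often gained together with it.

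Sequence around the transcription starts of the detected RNAs other than PVT1 is shown to make their identity concrete, since the probe letters themselves were not used here. Each window runs from 60 bases before the RefSeq start (GRCh38.p14) to its 20th base, in the sense direction, and capitals mark the motif TATAAA. MALAT1 is given at both of its listed starts.
MALAT1, upstream start, chr11:65497678-65497757, plus strand: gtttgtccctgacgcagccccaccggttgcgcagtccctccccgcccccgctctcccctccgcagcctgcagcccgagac
MALAT1, downstream start, chr11:65498985-65499064, plus strand: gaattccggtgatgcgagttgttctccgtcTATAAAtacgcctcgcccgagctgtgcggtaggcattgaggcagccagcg
H19, chr11:2001247-2001326, minus strand: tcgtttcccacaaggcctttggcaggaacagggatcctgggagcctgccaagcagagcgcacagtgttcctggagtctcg
MEG3, chr14:100826048-100826127, plus strand: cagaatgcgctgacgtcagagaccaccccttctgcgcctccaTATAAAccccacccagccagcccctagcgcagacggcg
GAS5, chr1:173869026-173869105, minus strand: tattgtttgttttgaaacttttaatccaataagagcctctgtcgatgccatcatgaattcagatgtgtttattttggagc
SNHG1, chr11:62855866-62855945, minus strand: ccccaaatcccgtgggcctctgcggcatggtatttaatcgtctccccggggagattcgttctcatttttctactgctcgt

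The motif stood at base −30 of the downstream MALAT1 start and at base −18 of the MEG3 start, counted to the first T of the motif, and these letters were not found in the other 4 windows. Of 35116 windows of the same 80 bases in the RefSeq table, 1054 (3.00%) held it on the sense strand and 4.16% on either strand. Its presence is a description of the letters only. The H19 transcript also holds the hairpin of miR-675, and its mature strands are printed because they are the part of H19 with known targets of their own, capitals marking the seed (bases 2 to 8).
hsa-miR-675-5p, chr11:1996800-1996822, minus strand: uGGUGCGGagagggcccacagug
hsa-miR-675-3p, chr11:1996768-1996787, minus strand: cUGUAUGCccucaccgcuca
The arrays measured the H19 transcript and not these microRNAs.

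Of these 7 RNAs HOTAIR was too dim to pass the filter for testing, and none of the others passed the test for a difference between SB and SCt cells. SNHG1 and PVT1 had the largest ratios. Of the 8 probes that were bright enough to be tested, 0 passed an adjusted p of 0.05 (limma, Benjamini-Hochberg over 28505 probes), where 1055 probes or 3.70% of all tested did. At an unadjusted p of 0.05, 2 of the 8 passed, the SNHG1 probe and 1 PVT1 probe, against 18.7% of all tested probes. The methods' t-test gave 0 of 8 at an unadjusted p of 0.05, against 13.8% of all tested probes, and 0 of 8 and 0 of 28505 after adjustment. The mean log2 ratios of the 8 probes ran from −0.19 to 0.15, 4 above and 4 below 0, with a median of 0.02 and a median size of 0.05. Over all tested probes the median was 0.01 and the median size 0.07, and the median SD between arrays was 0.11 for both the 8 probes and all tested probes. The plot of log2 ratios by array shows how far the 4 values of each probe scatter around 0.

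**Figure D1:**
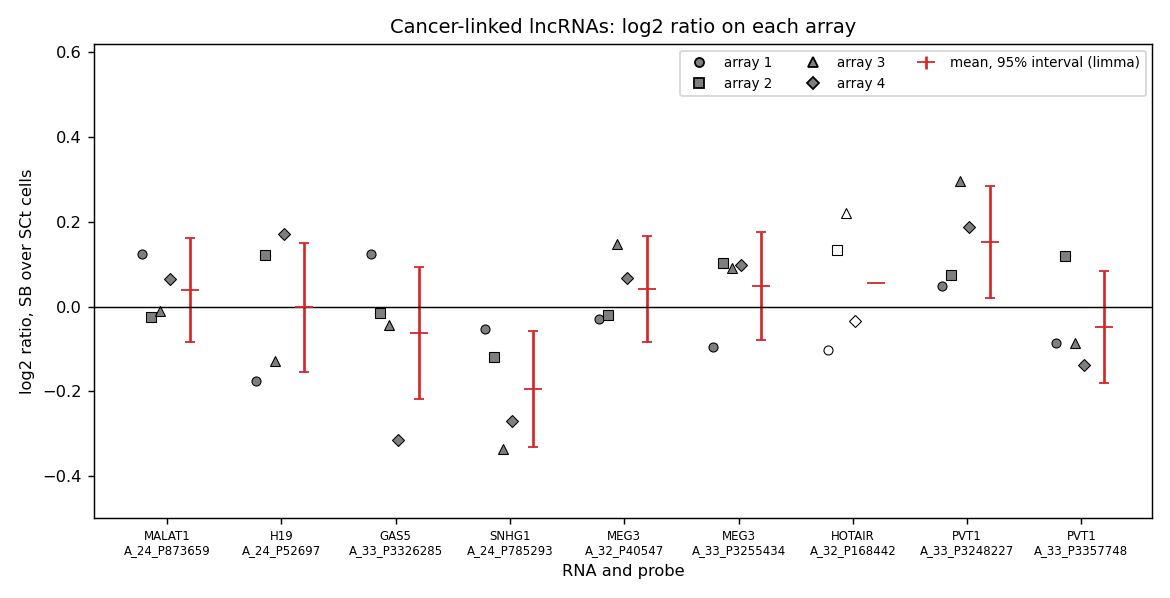
Log2 ratio of SB over SCt cells (vertical axis) of each of the 9 lncRNA probes (horizontal axis) on arrays 1 to 4, with the mean and its 95% interval from limma in red. Open symbols mark the HOTAIR probe, which was too dim to pass the filter for testing. Only the intervals of SNHG1 (−0.33 to −0.06) and of the first PVT1 probe (0.02 to 0.28) leave out 0, and both have adjusted p-values above 0.05.

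MALAT1, the nuclear speckle RNA, was detected in both channels on all 4 arrays. Its spot intensity was 1359, 1187, 1797.5 and 714 in SB cells and 604, 787, 1225.5 and 417 in SCt cells on arrays 1 to 4, so that arrays 1 to 3 were brighter than array 4 in both channels. The normalized log2 ratios were 0.12, −0.03, −0.01 and 0.07. The mean was 0.04 ± 0.07 (SD, n = 4 arrays), with 2 arrays above and 2 below 0 (adjusted p = 0.769, limma). The 95% interval, −0.08 to 0.16, spans ratios from 1.06-fold lower to 1.12-fold higher in SB cells.

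The genes that MALAT1 and NEAT1 work beside were measured on the same arrays. Of 22 nuclear speckle and splicing factor genes, each at its brightest tested probe, 1 passed the test, where 3.51% of 23484 genes (unmatched accessions counted as genes) did. This was SF3A1, a subunit of the U2 snRNP, with a log2 ratio of −0.33 ± 0.18 (SD, n = 4; adjusted p = 0.0227, limma), which became −0.26 with an adjusted p of 0.162 without array 3. Of 22 paraspeckle protein genes 1 passed, SFPQ, which encodes a core RNA-binding protein of the bodies that NEAT1 builds, at −0.25 ± 0.08 (adjusted p = 0.0304, limma). That call was lost when any of arrays 1, 2 or 3 was left out (adjusted p 0.0573, 0.107 and 0.166) and with median centring in place of loess, where the ratio was −0.08. The lowest and highest ratios were −0.33 (SF3A1) and 0.13 (U2AF2, a splice site recognition factor) in the speckle list, and −0.25 (SFPQ) and 0.10 (FAM98A) in the paraspeckle list. Most genes of both lists lay slightly below 0 after loess, 19 of 22 with a median of −0.08 and 18 of 22 with a median of −0.05, against 44.6% of all genes. With median centring 4 of 22 and 5 of 22 lay below 0, against 35.6% of all genes. With the scanner software's ratios 20 of 22 and 16 of 22 did, against 44.7% of all genes. With no background correction 20 of 22 and 18 of 22 did. Among these settings, only median centring turned the direction of the small shifts.

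H19 and MEG3 were the imprinted members, and neither was called. H19 gave a spot intensity of 71628, 86932.2, 89722.5 and 43971.9 in SB cells and 31983, 43102.4, 50443.7 and 22627.8 in SCt cells, and it was detected in both channels on all 4 arrays. Array 4 was the dimmest in both channels. Its log2 ratios were −0.18, 0.12, −0.13 and 0.17 on arrays 1 to 4, 2 arrays on each side of 0. The mean was −0.00174 ± 0.17 (SD, n = 4; adjusted p = 0.993, limma), and the 95% interval of −0.15 to 0.15 reaches 1.11-fold in either direction. Without array 1 the mean was 0.06 and without array 3 it was 0.04, neither of them called.

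The H19 value depended on the normalization more than that of any other tested member probe. Only 1.05% of tested probes were brighter, and loess fits a curve through the ratios along brightness. When each array was centred on its median in place of loess, the H19 ratios became 0.26, 0.49, 0.34 and 0.39, higher in SB cells on 4 of 4 arrays, with a mean of 0.37 ± 0.10 (adjusted p = 0.00294, limma). Median centring called 8937 probes (31.4% of those tested, 5599 higher and 3338 lower) where loess called 1055 (376 higher and 679 lower). With no dye swap, a rise of H19 in SB cells cannot be told apart from a dye effect at bright spots. The plot of ratio against brightness shows where H19 lies.

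**Figure D2:**
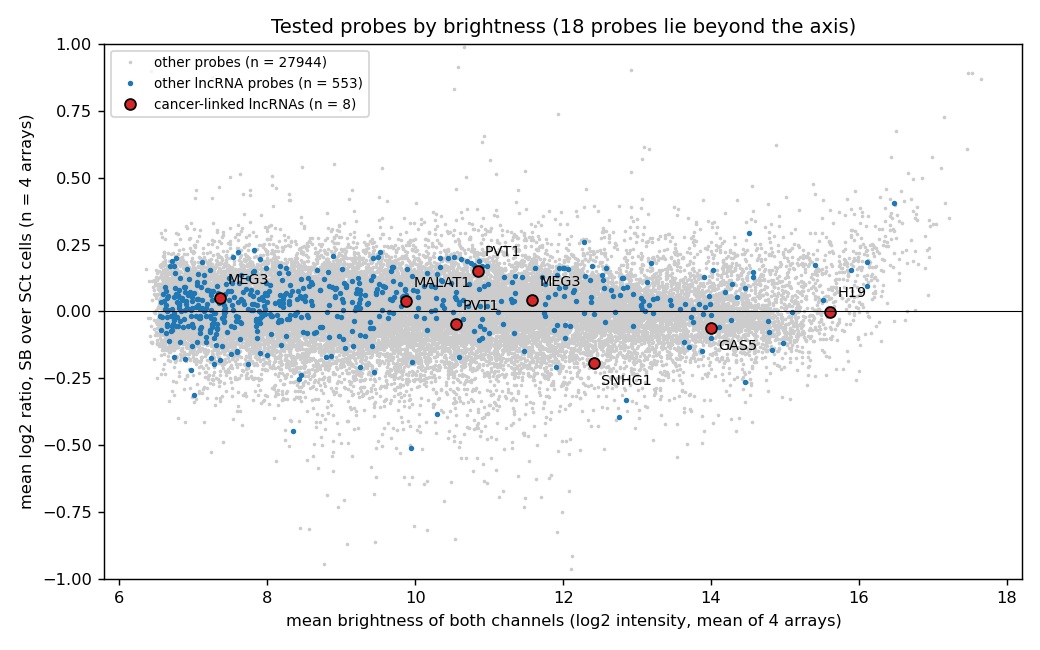
Mean log2 ratio of SB over SCt cells after loess (vertical axis, n = 4 arrays) against the mean brightness of both channels (horizontal axis, log2 intensity) for the tested probes, with the 8 tested lncRNA probes in red and 553 probes of other lncRNA genes in blue; 18 probes lie beyond the vertical axis. H19 sits near the bright end, where few probes lie, and the 8 red points stay between −0.19 and 0.15.

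Both MEG3 probes were detected in both channels on all 4 arrays. The first, A_32_P40547, had intensities of 3402, 4100, 4744 and 3828 in SB cells and 1644, 2690, 2867 and 2274.5 in SCt cells. Its log2 ratios were −0.03, −0.02, 0.15 and 0.07, with a mean of 0.04 ± 0.08 (SD, n = 4; adjusted p = 0.751, limma). The second, A_33_P3255434, had intensities of 176, 163.5, 215 and 181 in SB cells and 107, 104, 137 and 115 in SCt cells. Its log2 ratios were −0.10, 0.10, 0.09 and 0.10, with a mean of 0.05 ± 0.10 (adjusted p = 0.713, limma), array 1 standing on the other side of 0 from the other 3. The 2 probes carry different accessions of the RNA, NR_002766 and NR_003530, and their ratios differed by −0.00690 ± 0.09 on average (exact two-sided sign-flip permutation test, p = 1, where 0.125 is the smallest possible). The 95% intervals were −0.08 to 0.17 and −0.08 to 0.18. They span ratios from 1.06-fold lower at each probe to 1.12-fold higher at the first and 1.13-fold higher at the second. With median centring the second probe turned to −0.10 and was not called.

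The neighbours of the imprinted members did not pass the test either. IGF2, the growth factor paired with H19, had log2 ratios of 0.16 ± 0.08 and 0.09 ± 0.07 at its 2 probes, each above 0 on 4 of 4 arrays (SD, n = 4; adjusted p = 0.150 and 0.405, limma). DLK1, the growth regulator paired with MEG3, lay at 0.00615 ± 0.03 and 0.00717 ± 0.08. Of the 16 tested genes of the imprinted list 1 was called, against 3.51% of all genes. This was ZDBF2, a paternally expressed gene of another imprinted region, at −0.27 ± 0.07 (adjusted p = 0.0222, limma). Without array 2 or array 3 its adjusted p was 0.111 and 0.136. The highest gene of the list was PHLDA2, a maternally expressed gene of the H19 region, at 0.22 ± 0.24 (adjusted p = 0.164), and the list's median was 0.00203.

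GAS5 and SNHG1, the snoRNA hosts, were detected in both channels on all 4 arrays. The GAS5 probe had intensities of 19698.7, 24742.7, 22139.2 and 20144.2 in SB cells and 7891, 14923, 13622 and 15002.5 in SCt cells, array 1 being low in the SCt channel. The median SCt intensity over all spots other than controls was also lowest on array 1 (362, against 400.75 to 588.5 on the other arrays). Its log2 ratios were 0.12, −0.02, −0.04 and −0.31, so that arrays 1 and 4 lay apart on opposite sides of 0. The mean was −0.06 ± 0.18 (SD, n = 4; adjusted p = 0.695, limma) with a 95% interval of −0.22 to 0.09, or up to 1.16-fold lower and 1.07-fold higher. It was 0.02 without array 4 and 0.17 with median centring, not called in either case.

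SNHG1 had the largest mean ratio of the tested members. Its intensities were 6404, 5964, 8220 and 6260.5 in SB cells and 3074, 4170, 6669 and 4702.5 in SCt cells. The log2 ratios were −0.05, −0.12, −0.34 and −0.27, below 0 on 4 of 4 arrays and lowest on arrays 3 and 4. The mean of −0.19 ± 0.13 (SD, n = 4) is 1.14-fold lower in SB cells, and its size exceeded that of 91.1% of all tested probes. It did not pass the adjusted threshold (unadjusted p = 0.00957, adjusted p = 0.117, limma), and the 95% interval of −0.33 to −0.06 reaches at most 1.26-fold. The ratio stayed between −0.24 and −0.05 under the 10 alternatives that change it, and it was called under none of the 15 tried (adjusted p 0.102 to 0.572). With median centring it was −0.05, with array 1 at 0.15 and above 0.

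Of 19 other snoRNA host genes on the arrays 0 passed the adjusted threshold, against 3.51% of all genes. At an unadjusted p of 0.05 in limma 3 passed, against 18.1% of all genes. The methods' t-test gave 0 at either, against 13.7% of all genes at its unadjusted p. Their ratios ran from −0.33 ± 0.37 for SNHG8 (adjusted p = 0.120, limma) to 0.14 ± 0.14 for RACK1, a ribosomal protein whose introns hold snoRNAs (adjusted p = 0.264, limma). The median was −0.03 after loess, with 12 of 19 below 0, and 0.08 with median centring, with 5 of 19 below 0. SNHG8 spread more between arrays than SNHG1, as its SD shows. Its ratio was −0.83 on array 4, and without that array its mean was −0.16 (adjusted p = 0.202, limma). A further list covered the MYC locus, the decay of spliced host RNAs and the glucocorticoid receptor, which GAS5 is known to bind. Among its 18 tested genes 2 were called, against 3.51% of all genes. SGK1, a kinase gene induced by glucocorticoids, lay at −0.39 ± 0.24 (adjusted p = 0.0228, limma). UPF3B, a nonsense-mediated decay factor, lay at −0.23 ± 0.09 (adjusted p = 0.0482, limma). Neither call held when any of arrays 1, 2 or 3 was left out, where adjusted p ran from 0.0604 to 0.194 for SGK1 and from 0.0633 to 0.217 for UPF3B, and without array 4 that of UPF3B was 0.0706. With median centring neither was called, SGK1 being at −0.20 (adjusted p = 0.0633) and UPF3B at −0.16 (adjusted p = 0.0656). NR3C1, which encodes the receptor, and its other targets in the list were not called (adjusted p 0.449 to 0.772, limma). They lay at 0.06 (NR3C1), 0.09 (DUSP1), 0.04 (TSC22D3) and −0.09 (FKBP5).

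HOTAIR was the one member on the arrays that the filter on dim probes left untested, because its signal was too close to background. When that filter was dropped HOTAIR was not called (adjusted p = 0.712, limma). The spot intensity was 67, 70.5, 100.5 and 67 in SB cells over local backgrounds of 43 to 48, and 50, 49.5, 62.5 and 55 in SCt cells over backgrounds of 27 to 33. It was well above background on 1 of 4 arrays in the SB channel and on 2 of 4 in the SCt channel. The log2 ratios of these dim spots were −0.10, 0.13, 0.22 and −0.03, with a mean of 0.05 ± 0.15 (SD, n = 4). The scanner software's own ratios gave −0.18 and median centring −0.36, so that not even the sign of the difference was set at this signal. The plot of spot intensities shows the HOTAIR values close to the local background and those of the other 8 probes above it.

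**Figure D3:**
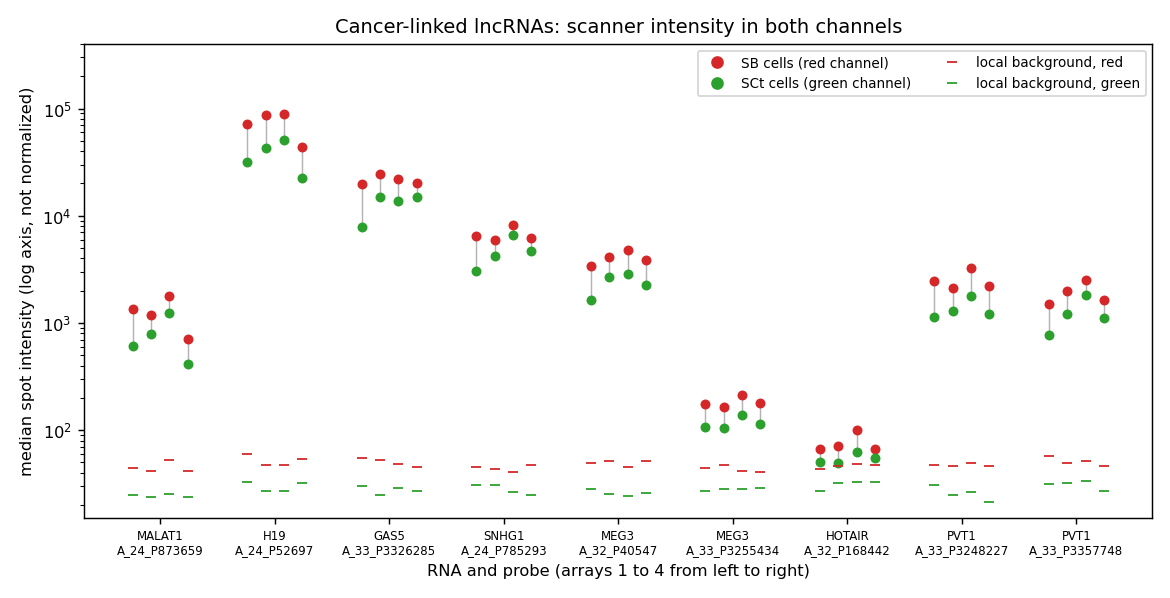
Median spot intensity (vertical axis, logarithmic, not normalized) of each lncRNA probe (horizontal axis) in SB cells (red channel) and SCt cells (green channel) on arrays 1 to 4 from left to right, with short lines for the local background. Red values exceed green values at every probe before normalization, as do the median intensities of all spots (655 to 875 against 362 to 588.5), and heights cannot be compared between probes.

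The HOXC genes beside HOTAIR were measured and did not pass the test. HOXC11 lay at −0.03 ± 0.11 and HOXC10 at 0.03 ± 0.05 (SD, n = 4, adjusted p = 0.867 and 0.824, limma). The tested HOXC genes ran from −0.30 ± 0.27 for HOXC6 (adjusted p = 0.0887, limma) to 0.09 ± 0.08 for HOXC13 (adjusted p = 0.428, limma). HOXC6 was lower on 3 of 4 arrays, and HOXC4, with values on 2 arrays, lay at −0.21 (adjusted p = 0.215, limma). Of 18 tested genes in the list of HOXC neighbours and chromatin factors 1 was called, against 3.51% of all genes. This was JARID2, a Polycomb cofactor, which fell by 0.40 on the log2 scale in SB cells (SD 0.11, adjusted p = 0.00428, limma). It was lower on 4 of 4 arrays and was called with each array left out. The highest gene of the list was REST, a transcriptional repressor, at 0.16 ± 0.17 (adjusted p = 0.240), and the median was −0.03.

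PVT1 was detected in both channels on all 4 arrays at both of its probes, which carry the same accession, NR_003367. The first, A_33_P3248227, had intensities of 2471, 2098, 3249 and 2231 in SB cells and 1147, 1296, 1792 and 1207 in SCt cells. Its log2 ratios were 0.05, 0.07, 0.30 and 0.19, above 0 on 4 of 4 arrays and highest on arrays 3 and 4. The mean was 0.15 ± 0.11 (SD, n = 4), 1.11-fold higher in SB cells, with a 95% interval of 0.02 to 0.28, or at most 1.22-fold (unadjusted p = 0.0282, adjusted p = 0.201, limma). The second, A_33_P3357748, had intensities of 1506, 2003, 2506 and 1628 in SB cells and 773, 1204, 1815 and 1109 in SCt cells. Its log2 ratios were −0.08, 0.12, −0.09 and −0.14, below 0 on 3 of 4 arrays. The mean was −0.05 ± 0.11 (adjusted p = 0.730, limma), with a 95% interval of −0.18 to 0.08.

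The 2 PVT1 probes thus had means on opposite sides of 0. The first exceeded the second on 3 of 4 arrays, by 0.20 ± 0.19 on average (exact two-sided sign-flip permutation test, p = 0.25, where 0.125 is the smallest possible). With median centring the first probe was called at 0.25 (adjusted p = 0.0161, limma) and the second was not, at 0.04 (adjusted p = 0.666). MYC, the oncogene beside PVT1, lay at −0.00312 ± 0.13 with 2 arrays above and 2 below 0 (adjusted p = 0.986, limma). MAX, the partner of MYC, was the highest gene of its list at 0.10 ± 0.06 (adjusted p = 0.382). The plot of ratios by processing setting shows that median centring was the only setting tried that brought any member probe past the threshold. It brought 2 of 8 member probes past it, and 31.4% of all tested probes.

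**Figure D4:**
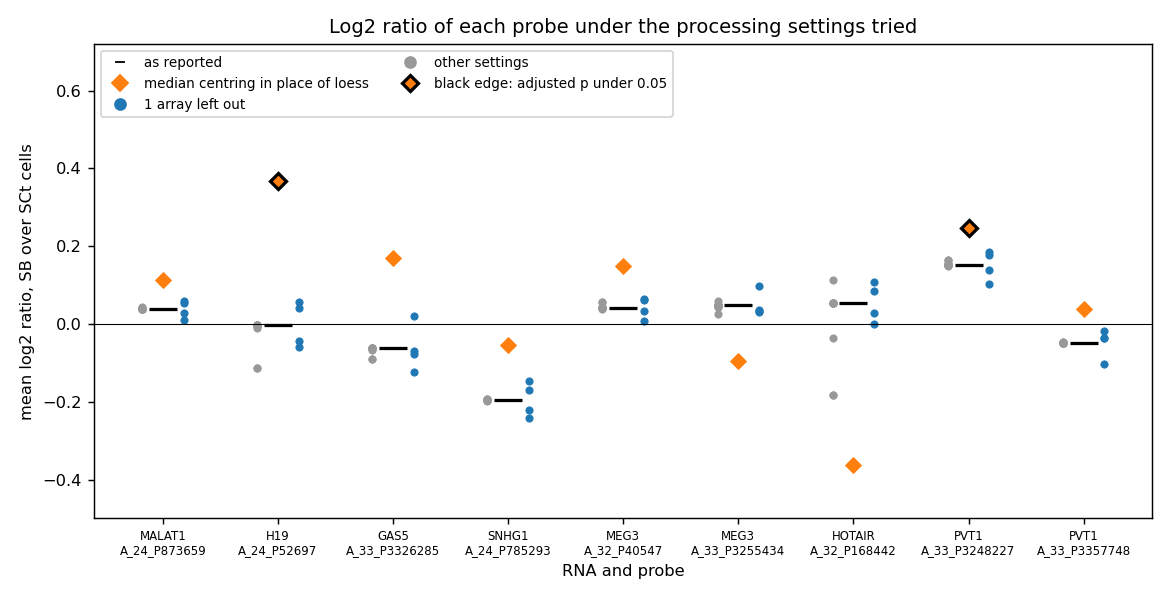
Mean log2 ratio of SB over SCt cells (vertical axis) of each lncRNA probe (horizontal axis) as reported (black line), with median centring (orange), with 1 array left out (blue) and under the other settings (grey). A black edge marks an adjusted p under 0.05, which only H19 (0.37) and the first PVT1 probe (0.25) reached, both with median centring. That setting called 31.4% of all tested probes.

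Other lncRNAs on the same arrays give the members' values a scale. The RefSeq table types 632 further genes on the array as lncRNA, with 751 probes. Of these probes 553 (73.6%) were bright enough to be tested, against 83.5% of all probes and 8 of the 9 member probes. Of the 553, 6 passed the adjusted threshold (1 higher and 5 lower in SB cells), against 3.70% of all tested probes. The median log2 ratio of the 553 was 0.03. Of those called lower, 4 were LINC-PINT, a p53-induced lncRNA (−0.51 ± 0.10, adjusted p = 0.000729), MIR31HG, the host of miR-31 (−0.45 ± 0.16, adjusted p = 0.00428), MIR100HG, the host of miR-100 (−0.38 ± 0.11, adjusted p = 0.00520), and TRHDE-AS1 (−0.31 ± 0.10, adjusted p = 0.0136), all by limma with n = 4, and the other one is not described here. FAM74A4 was called higher (0.40 ± 0.08, adjusted p = 0.00276). With median centring FAM74A4 moved to 0.84 and TRHDE-AS1 to −0.53, both still called. Without array 3 the adjusted p was 0.0790 for MIR31HG, 0.0684 for MIR100HG and 0.115 for TRHDE-AS1, which was also at 0.0536 without array 1. MIR31HG was the 1 called gene among 23 tested genes of a list of other cancer-linked lncRNAs, where 3.51% of all genes passed. The median of that list was 0.05 and its highest member was KCNQ1OT1 at 0.20 ± 0.19 (adjusted p = 0.150).

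**Figure D5:**
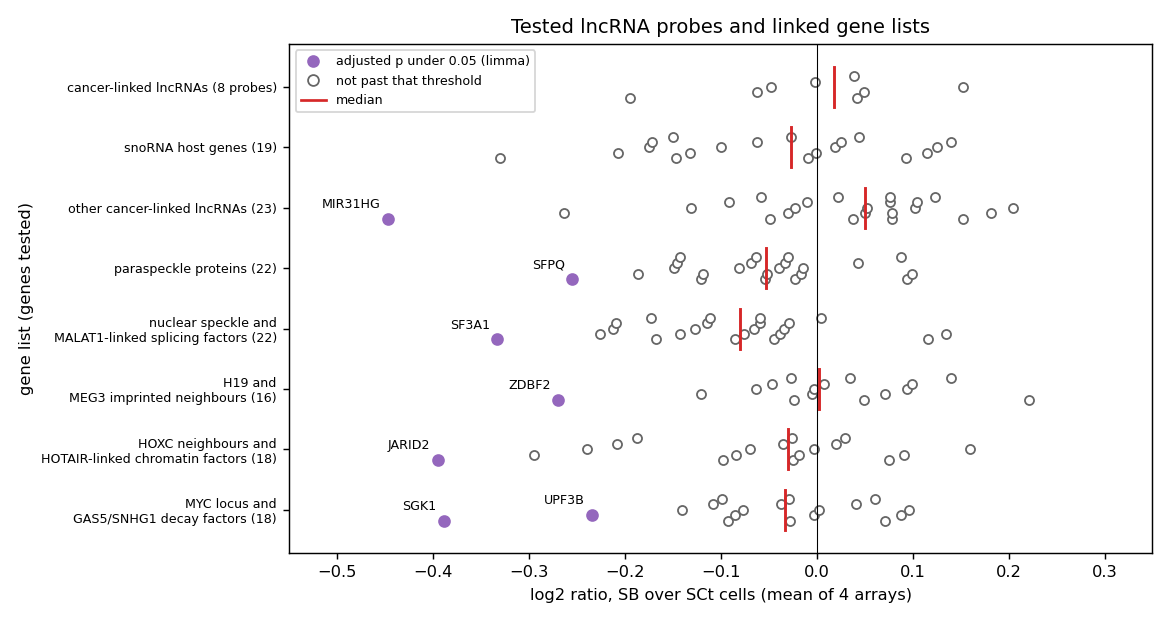
Mean log2 ratio of SB over SCt cells (horizontal axis, n = 4 arrays) of the 8 tested lncRNA probes and of the genes of each linked list (vertical axis), with filled points for an adjusted p under 0.05 in limma and a red line for each median. The 8 lncRNA probes hold no filled point, and the filled points of the lists, from −0.45 (MIR31HG) to −0.23 (UPF3B), all lie below 0.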

How the data were processed

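Two-colour expression arrays of SB and SCt cells were analysed (n = 4 arrays). The authors deposited the output of Agilent Feature Extraction 10.5.1.1, in which each spot has a red and a green median intensity on a linear scale with its local background, not normalized. The authors' files also hold the software's ratio on a log10 scale, the log10 ratio of red over green, after background subtraction and dye normalization. A table of the whole series was deposited as log2 ratios of SB over SCt, with column medians from −0.0165 to 0.0220, and it equalled the software's processed ratio to within 0.001 for 97.6% to 97.9% of probes. The authors then recorded genes over 2.5-fold, a rule not used here. Further steps are not given in the sources used here.

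Intensities were background-corrected in limma 3.58.1 (R 4.3.3) by normexp (offset 50). Control spots and 814 to 1168 outlier spots per array were then removed, ratios were loess-normalized within each array, and spots of a probe were averaged. Testing required that 1 channel, the same on every array, was well above background, and that at least 2 arrays had values; 28505 of 34127 probes met this. The mean log2 ratio was tested against 0 with lmFit and eBayes without covariates, with Benjamini-Hochberg adjustment over these probes. Spots of a probe within an array had a median SD of 0.0580 to 0.0680 (999 probes of 10 spots), against 0.0851 between arrays. Each member probe had 1 spot per array, so that the spot error and the number of arrays both limit the precision.

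Gene names come from matching accessions to RefSeq (GRCh38.p14; 24826 of 34127 probes matched), as do the window and microRNA sequences. The members and the gene lists were chosen with earlier results of these data known. Genes named besides the members are MTDH, the neighbours IGF2, DLK1, HOXC11, HOXC10 and MYC, and in each list the called genes and the lowest and highest. LINC-PINT, MIR100HG, TRHDE-AS1, FAM74A4, NR3C1, DUSP1, TSC22D3, FKBP5, HOXC6, HOXC4 and HOXC13 were named after their values were seen. As no member was called, genes most like a member were not looked for. The steps were tested on simulated data. Alternatives tried were the ratios of the scanner software or of the series table, median centring or Aquantile, normexp with offset 0 or no background correction, no filter or a filter on both channels, the outlier spots included, a trended and robust eBayes, the methods' t-test, averaging a gene's probes, and leaving out each array.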

Additional observations from a re-analysis of the deposited data

Results flagged for a closer look

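Of the 9 lncRNA probes, 1 had an array that stood apart from the other 3 relative to the range of the 4 values. The second MEG3 probe, A_33_P3255434, gave a log2 ratio of −0.10 on array 1 and between 0.09 and 0.10 on arrays 2 to 4. The gap between array 1 and the nearest other array was 0.943 of the whole range, above Dixon's critical value for 4 samples at the 95% level. Chance alone flags about 5% of such groups, and the other MEG3 probe was not flagged. Of the 146 probes examined in this way, these 9 included, 4 were flagged. Without array 1 the mean of the flagged probe was 0.10, not called.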

How the results depend on the processing

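The number of lncRNA probes called was 0 under every alternative but median centring, which called 2 of the 8 tested. Median centring called 31.4% of all tested probes. Median centring turned H19 to 0.37 (called), GAS5 to 0.17, the second MEG3 probe to −0.10 and the second PVT1 probe to 0.0381, brought the first PVT1 probe to 0.25 (called) and HOTAIR to −0.36. HOTAIR was −0.18 by the software's ratios and in the series table. With 1 array left out, H19 ran from −0.0598 to 0.0561 (0.0561 without array 1, 0.0401 without array 3) and GAS5 from −0.124 to 0.0218 (without array 4). MALAT1, SNHG1, the first MEG3 probe and the first PVT1 probe kept their direction under the 10 alternatives that change a ratio (the other 5 change only the filter, the test or the channels' scaling).

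All probes called were 1055 as reported, 698 in the series table, 8937 with median centring, 0 by the methods' t-test, 1298 with eBayes trend and robust options, and 204 (without array 3) to 1991 (without array 4). Other lncRNA probes called were 6 as reported, 11 by the software's ratios and by eBayes trend and robust options, 12 in the series table, 206 with median centring, 0 by the methods' t-test, and 2 to 17 with 1 array left out. Median centring called 31.4% of all tested probes. In the lists it called 3 of 19 snoRNA hosts, 12 of 23 other cancer-linked lncRNAs, 6 of 22 paraspeckle and 5 of 22 nuclear speckle genes. It also called 6 of 16 imprinted, 4 of 18 HOXC and chromatin, and 5 of 18 MYC and decay genes, SGK1 and UPF3B not among them. The paraspeckle and the MYC and decay lists had 0 calls by the software's ratios, in the series table and with normexp offset 0, and the latter 1 with outlier spots kept. The HOXC and chromatin list had 2 calls with eBayes trend and robust options, and every list had 0 by the methods' t-test. With 1 array left out, calls ran from 0 to 3 (other cancer-linked lncRNAs), 0 to 1 (paraspeckle), 0 to 3 (nuclear speckle), 0 to 2 (imprinted), 1 to 2 (HOXC and chromatin) and 0 to 1 (MYC and decay). The share called of all tested probes then ran from 0.717% (without array 3) to 6.99% (without array 4). The cause was not tested.

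Each array holds both lines, so that its ratio already pairs them and is 1 value, and the replicate number cannot be a further term. The limits are 1 slide, no dye swap, 1 spot per member probe and 1 probe for 5 of the 7 RNAs; HOTAIR is limited by signal over background.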
